A study of Mus musculus with 24 samples.

Results

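The genes described here encode the translation factors of the mouse, the proteins that bring ribosomes to mRNA and move them along it. Members were the protein-coding genes of the count matrix whose symbol starts with Eif1 to Eif6, Eef1 or Eef2, leaving out the eIF2 kinases, the eIF4E-binding proteins and the eEF1A lysine methyltransferases, whose symbols share these stems. There were 57 such genes among 53677 identifiers, of which 9 carry an elongation symbol (Eef) and 48 an initiation symbol (Eif). RNA-seq libraries were made from liver of 2 inbred strains on 2 diets: 129S1/SvImJ on chow (n = 5), 129S1/SvImJ on a high-fat diet (n = 6), C57BL/6J on chow (n = 6) and C57BL/6J on a high-fat diet (n = 7), with 1 library per mouse. The labels give neither the age of the mice nor the diets' composition or length, and they name no engineered allele or drug. The series' title places the work in a study of how genetic background acts on TCF7L2 binding and open chromatin in liver. For this family the design allows 5 comparisons, namely diet in each strain, strain on each diet, and the difference between the strains in their diet effect.

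Translation begins when eIF2 delivers the initiator tRNA to the small ribosomal subunit, with eIF1, eIF1A, eIF3 and eIF5 bound to it, and when the eIF4 proteins bring the capped mRNA. Once the large subunit has joined through eIF5B, eEF1A carries each aminoacyl tRNA to the ribosome, eEF1B recharges eEF1A with GTP, and eEF2 moves the ribosome by one codon. The liver makes most plasma proteins and its cells carry many ribosomes. In many cells the mRNAs of ribosomal proteins and of several translation factors start with a cytosine followed by a run of pyrimidines, the 5' terminal oligopyrimidine motif, through which mTORC1 controls their translation.

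Total counts were between 6707013 and 13124881 per library, so differences of a few counts in weak genes lie within counting error. Levels are given as CPM, counts divided by the library total after scaling by edgeR's TMM factors, with the SD over mice. The hepatocyte markers Alb, Apoa1, Ttr, Apob, Cps1 and Tat were high in every library, with summed levels from 75882 to 110577 CPM. Marker sums of other cells differed between groups: the 7 adipocyte markers summed to 50.5 to 306.5 CPM in C57BL/6J on the high-fat diet and to at most 12.5 CPM in the other groups, through Cfd and Cidea, whereas Adipoq, Lep, Plin1 and Retn had no count in 15, 21, 17 and 18 of the 24 libraries. The 7 Kupffer cell and macrophage markers had median sums of 121.9 and 224.5 CPM in 129S1/SvImJ on chow and on the high-fat diet, and of 292.2 and 363.7 CPM in C57BL/6J. The small nuclear RNA 7SK, which the libraries held to unequal extents, ranged from 2097 to 7258 CPM within and between groups. In whole liver, fewer cells of a type and less RNA per cell cannot be told apart, and the part of these differences in the results on translation factors was not tested except where values are given.

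Of the 57 genes, 55 had enough counts to be tested. Eef1a2, the eEF1A copy of muscle and neurons, was at 0.18 CPM or less in every library, and Eif4e1b, an oocyte form of the cap-binding protein, was at 0.0983 CPM or less. Per kilobase of exon, Eef1a1 was the most abundant member at 687.1 CPM per kb, followed by Eef2 at 420.3, both as means over the 24 libraries. The next were the scaffold protein gene Eif4g1 at 95.7 CPM per kb and Eif5a, whose hypusine-modified product helps ribosomes past difficult peptide bonds, at 74.6. Eif4b, Eif4g2 and Eif1 followed at 67.9, 65.5 and 58.1 CPM per kb. The eIF3 subunit genes apart from the Eif3j copies lay between 9.15 CPM per kb for Eif3e and 40.6 for Eif3c. The 5 subunit genes of eIF2B, the exchange factor that reloads eIF2, lay between 1.8 for Eif2b3 and 14.1 for Eif2b5. The cap-binding protein gene Eif4e stood at 5.23 CPM per kb, which was below its helicase partners Eif4a1 at 31.6 and Eif4a2 at 43.1.

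The elongation factors carried 9 of the 57 genes but a large part of the reads. Their summed level was 3372 ± 222 CPM (SD, n = 5) in 129S1/SvImJ on chow, 3369.6 ± 99.9 CPM (SD, n = 6) in 129S1/SvImJ on the high-fat diet, 3649.5 ± 220 CPM (SD, n = 6) in C57BL/6J on chow and 3023 ± 201 CPM (SD, n = 7) in C57BL/6J on the high-fat diet. In C57BL/6J the highest high-fat library reached 3241.5 CPM and the lowest chow library 3421.7 CPM, so these groups did not overlap. The initiation factors summed to 4535.1 ± 317, 4668.8 ± 124, 4596.2 ± 219 and 4383.7 ± 179 CPM in the same order. The ratio of the elongation sum to the initiation sum was 0.744 ± 0.0217, 0.722 ± 0.0304, 0.794 ± 0.0343 and 0.69 ± 0.0398. Its lowest C57BL/6J chow value, 0.756, lay just above the highest C57BL/6J high-fat value, 0.755. Most of the elongation sum came from Eef1a1 and Eef2.

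More of these genes were called for diet in C57BL/6J than in 129S1/SvImJ, and nearly all of the C57BL/6J calls were downwards. The groups differ in size, and the direct test of the strains' difference in diet effect, given below, called no member. In C57BL/6J, 13 of the 55 tested members fell on the high-fat diet and 1 rose by edgeR's quasi-likelihood test at a Benjamini-Hochberg adjusted p under 0.05 over 14533 genes. That is 25.5% of the members, beside 14.9% of all tested genes, and for the lower direction it is 23.6% of the members beside 7.20% of all tested genes. The 13 were Eef2, Eef1a1 and Eef1b2 among the elongation factors and Eif4b, Eif4e2, Eif5, Eif1, Eif1a, Eif2a, Eif3d, Eif3e, Eif3i and Eif3m among the initiation factors. The median log2 fold change of the 55 members was -0.10, with 43 below 0, beside a median of 0.01 for all genes. The single higher member, 1.82% of the 55 beside 7.66% of all tested genes, was Eif4e3. Without C57BL/6J chow library 3 the test called 7 members lower and 1 higher, beside 12.9% of all tested genes in either direction. Hepatocyte marker sums moved with diet in this strain, from 103629.8 to 110576.9 CPM on chow and from 76776.6 to 93333.3 CPM on the high-fat diet, as did the adipocyte markers. The stellate cell list did not move as one. Mean levels on chow and on the high-fat diet were 17.9 and 69.3 CPM for Col1a1 and 50.5 and 136.9 CPM for Col3a1. They were 37.5 and 48.0 CPM for Lrat, 4.34 and 5.05 CPM for Des, and 226.6 and 204.5 CPM for Reln. In 129S1/SvImJ, where no member fell, the median hepatocyte sum was 92981.3 CPM on chow and 83950.5 CPM on the high-fat diet. The hepatocyte list did not move as one in this strain. Mean levels on chow and on the high-fat diet were 20282.1 and 21596.1 CPM for Apob and 6953.6 and 7967.5 CPM for Cps1. Those of Alb, Apoa1, Ttr and Tat were lower on the high-fat diet, Alb at 45348.8 CPM against 56327.6 CPM on chow. The part of these cell markers in the members' decreases was not tested.

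**Figure D1:**
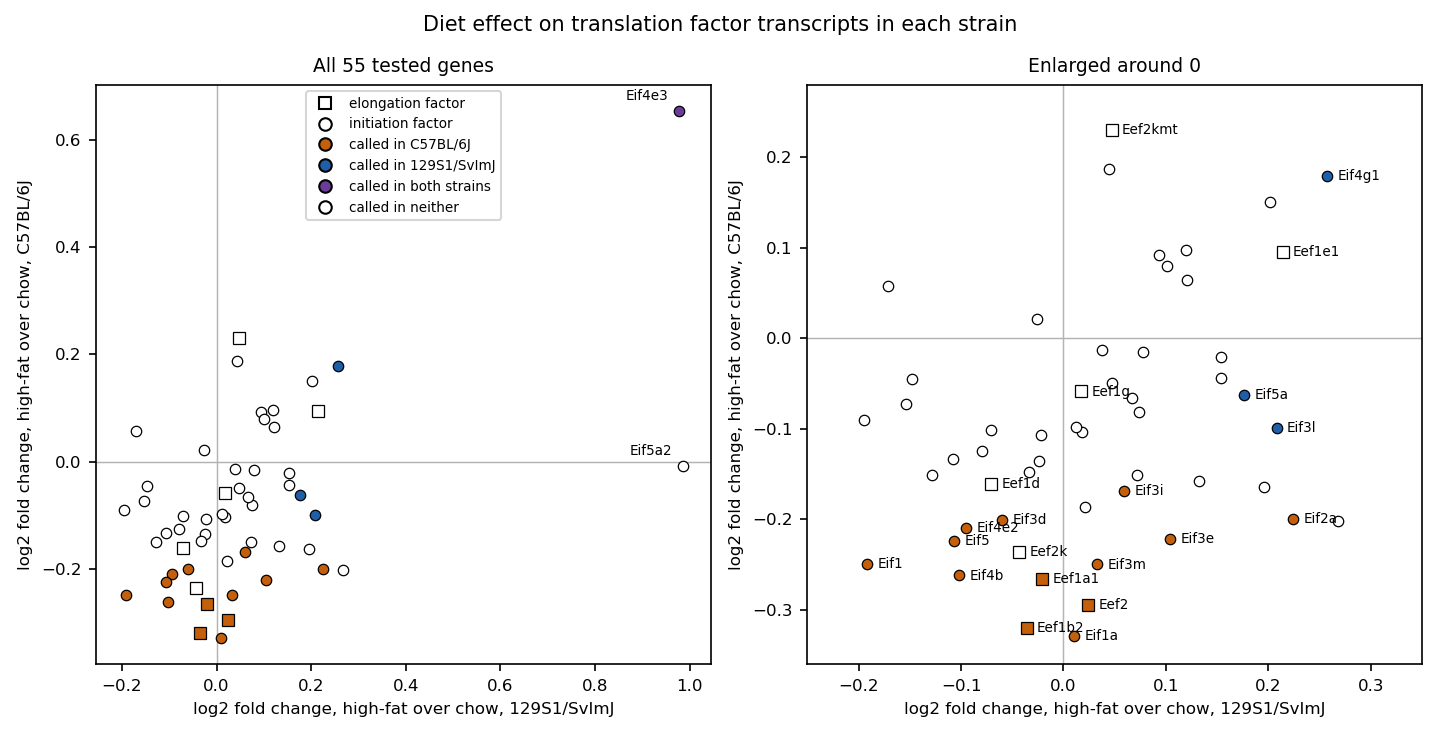
Log2 fold change of high-fat diet over chow in 129S1/SvImJ (horizontal axis) and in C57BL/6J (vertical axis) for the 55 tested members, with the region around 0 enlarged at the right, squares for elongation and circles for initiation factors, and a fill that marks members called by edgeR in C57BL/6J, in 129S1/SvImJ, in both or in neither. The 13 members that fell in C57BL/6J lie between -0.33 and -0.17 on the vertical axis and between -0.19 and 0.22 on the horizontal axis, and Eif4e3 stands apart at the upper right.

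Eef2, the translocation GTPase, was at 1318.1 to 1539.4 CPM in C57BL/6J on chow (median 1491.4, n = 6) and at 1062.2 to 1344.9 CPM on the high-fat diet (median 1193, n = 7). Only 1 high-fat library exceeded the lowest chow library. The log2 fold change was -0.30 ± 0.062 (SE), a ratio of 0.815, with an edgeR adjusted p of 0.00187, and the call was kept in each of 24 fits that left out 1 library. In 129S1/SvImJ the 5 chow libraries held 1478.2, 1417.7, 1433.1, 1455.2 and 1609.8 CPM of Eef2, and the high-fat libraries ranged from 1420.4 to 1649.6 CPM (median 1499.2, n = 6). These groups overlapped throughout, with a log2 fold change of 0.02 ± 0.067 (SE) and an edgeR adjusted p of 0.874.

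Eef1a1, the carrier of aminoacyl tRNA, ranged from 1730 to 2229.5 CPM in C57BL/6J on chow (median 1920.7, n = 6) and from 1383.7 to 1788.2 CPM on the high-fat diet (median 1646.5, n = 7). The 2 groups overlapped through 1 library on each side. Its log2 fold change was -0.27 ± 0.076 (SE) with an edgeR adjusted p of 0.019, and without C57BL/6J chow library 3, the highest, the adjusted p was 0.0505. In 129S1/SvImJ the chow libraries were at 1505.9, 1466.6, 1939.8, 1772.3 and 1584.2 CPM and the high-fat libraries at 1471.1 to 1760.4 CPM (median 1644.5, n = 6), a log2 fold change of -0.02 ± 0.083 (SE) with an edgeR adjusted p of 0.913. The highest 129S1/SvImJ chow libraries, 3 and 4, were also those with the most 7SK, at 7258 and 6206 CPM, and C57BL/6J chow library 3 had the most 7SK of its group, at 5005 CPM.

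Eef1b2 encodes the exchange subunit of eEF1B that acts on eEF1A. Its level was 78.2 to 111.7 CPM in C57BL/6J on chow (median 89.7, n = 6) and 66.2 to 84.6 CPM on the high-fat diet (median 73, n = 7). Apart from high-fat library 7, every high-fat library lay below every chow library. The log2 fold change was -0.32 ± 0.086 (SE) with an edgeR adjusted p of 0.0125, and no single library ended the call. The other eEF1B subunit genes did not pass the test: Eef1d, another exchange subunit, had a C57BL/6J estimate of -0.16 ± 0.082 (SE) and Eef1g, the anchoring subunit, one of -0.06 ± 0.084 (SE). The median over the 5 tested core elongation factors was -0.27 in C57BL/6J, and all 5 estimates were below 0. Without C57BL/6J chow library 3 it was -0.23, with 4 estimates below 0, 1 above 0 and 2 called. With all libraries the median in 129S1/SvImJ was -0.02 and none of the 5 was called.

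**Figure D2:**
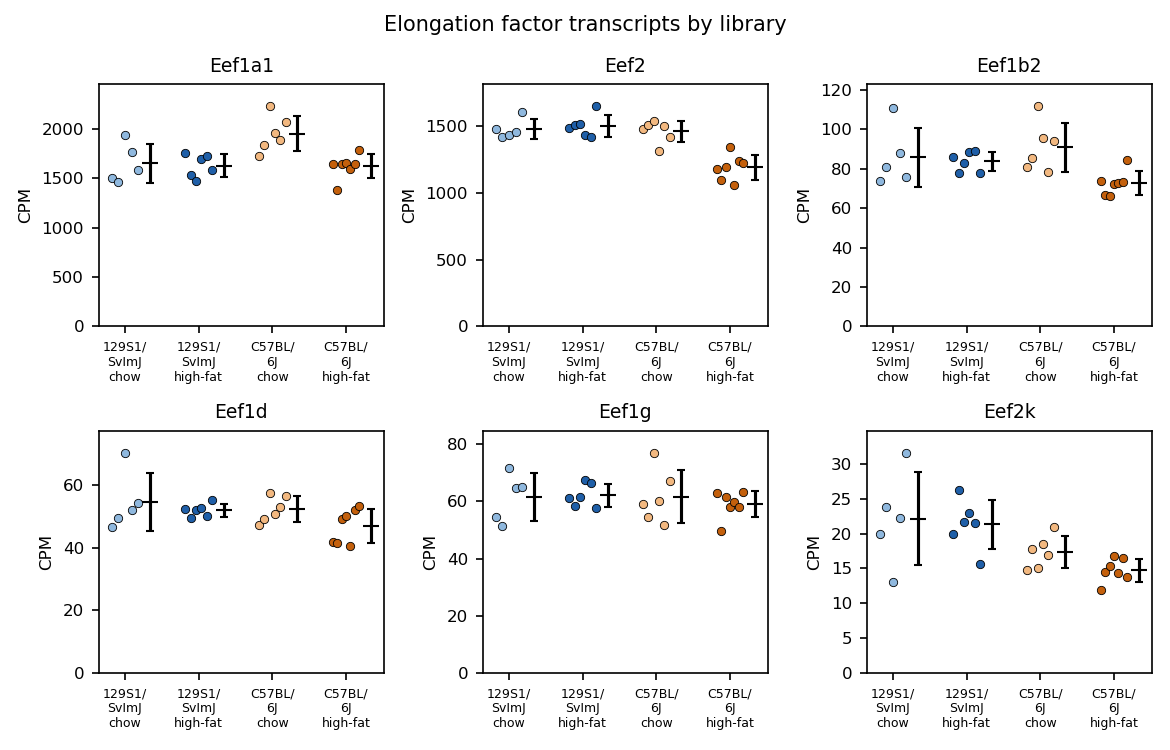
CPM of 5 core elongation factors and of the eEF2 kinase gene Eef2k in each of the 24 libraries, by strain and diet. Points are mice and the bars beside them show mean and SD; C57BL/6J high-fat means of 1192 CPM for Eef2 and 72.8 CPM for Eef1b2 are the lowest of the 4 groups.

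The remaining Eef genes regulate or accompany the elongation factors and did not change with diet at this threshold. Eef2k, the kinase that inhibits eEF2, had C57BL/6J means of 17.3 ± 2.31 CPM (SD, n = 6) for chow and 14.7 ± 1.67 CPM (SD, n = 7) for the high-fat diet, with an estimate of -0.24 ± 0.139 (SE) with an edgeR adjusted p of 0.274. Eef2kmt, the eEF2 lysine methyltransferase, was the one Eef gene with an estimate well above 0 in C57BL/6J, at 0.23 ± 0.122 (SE), and its edgeR adjusted p was 0.22. Eef1e1, a subunit of the multi-synthetase complex, had estimates of 0.21 ± 0.166 (SE) in 129S1/SvImJ and 0.09 ± 0.149 (SE) in C57BL/6J.

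Set against each other, the tested elongation factors (8 genes) showed a median C57BL/6J diet effect of -0.20 on the log2 scale. For the tested initiation factors (47 genes) it was -0.10, and the difference between these medians was -0.10. Called lower were 3 of the elongation and 10 of the initiation factors, beside 7.20% of all tested genes. In 129S1/SvImJ the medians were -0.00 and 0.04 and their difference was -0.05. For scale, the same difference taken in single mice, after centring each gene, had an SD of 0.069 within groups, and its C57BL/6J means were 0.00 ± 0.056 (SD, n = 6) on chow and -0.05 ± 0.089 (SD, n = 7) on the high-fat diet. The C57BL/6J mice of both diets overlapped in this measure.

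The initiation factors that act on the small subunit fell in C57BL/6J in part. Eif1, which holds the scanning ribosome open until it meets a start codon, was at 116.2 to 143 CPM on chow (median 127.9, n = 6) and 92.6 to 119.4 CPM on the high-fat diet (median 111.7, n = 7). Only high-fat library 4 exceeded the lowest chow library. The estimate was -0.25 ± 0.065 (SE) on the log2 scale with an edgeR adjusted p of 0.011. In 129S1/SvImJ it was -0.19 ± 0.071 (SE) with an edgeR adjusted p of 0.0864. Eif5, the GTPase-activating protein for eIF2, ranged from 293 to 351.3 CPM on chow (median 314.7, n = 6) and from 258.1 to 290.8 CPM on the high-fat diet (median 276.9, n = 7), with no overlap. Its log2 fold change was -0.22 ± 0.056 (SE) with an edgeR adjusted p of 0.00818, and neither the Eif1 nor the Eif5 call ended when any single library was left out. Eif1a, one of the genes for the scanning factor eIF1A, had a log2 fold change of -0.33 ± 0.108 (SE) and an edgeR adjusted p of 0.04 that rose above 0.05 in 9 of the 24 fits without 1 library. Its X-linked relative Eif1ax had one of -0.04 ± 0.061 (SE) and was not called.

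The eIF2 complex and its exchange factor were not called in either diet comparison. In C57BL/6J the log2 fold changes were -0.15 ± 0.07 (SE) for Eif2s1, the alpha subunit that the stress kinases phosphorylate, -0.11 ± 0.097 (SE) for Eif2s2 and -0.10 ± 0.072 (SE) for Eif2s3x. The 5 eIF2B genes lay between -0.10 and 0.06. The gamma subunit has an X-linked and a Y-linked gene, and all libraries held counts of both. Eif2s3y was the higher one, at 3.79 ± 0.456 (SD, n = 5), 4.15 ± 0.386 (SD, n = 6), 3.66 ± 0.179 (SD, n = 6) and 3.87 ± 0.488 (SD, n = 7) times the CPM of Eif2s3x in 129S1/SvImJ on chow and high-fat diet and in C57BL/6J on chow and high-fat diet. Their coding sequences are 86.3% identical over 1419 bases, and these ratios overlapped in all groups. Eif2a, a separate protein that can bring initiator tRNA without eIF2, was called as lower in C57BL/6J, at -0.20 ± 0.068 (SE) and an edgeR adjusted p of 0.0483, which rose above 0.05 in 15 of the 24 fits without 1 library.

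All 14 eIF3 genes, among them Eif3j2 with 20 counts in that strain, had estimates below 0 in C57BL/6J, with a median log2 fold change of -0.16, and 4 of them were called. eIF3 is the largest initiation factor and bridges the small subunit and eIF4G. Eif3m was at 38 to 45.5 CPM on chow (lowest and highest of 6) and at 29.4 to 37.4 CPM on the high-fat diet (of 7), with no overlap, a log2 fold change of -0.25 ± 0.075 (SE) and an edgeR adjusted p of 0.0244. Eif3d, whose product can bind the cap of some mRNAs, also showed no overlap, with 59.5 to 67.5 CPM on chow and 50.3 to 58.4 CPM on the high-fat diet. Diet changed it by -0.20 ± 0.064 (SE) on the log2 scale, with an edgeR adjusted p of 0.0334. Eif3e and Eif3i had log2 fold changes of -0.22 ± 0.064 (SE) and -0.17 ± 0.055 (SE), with edgeR adjusted p of 0.0195 and 0.0373. These calls were at the edge of the threshold: without C57BL/6J chow library 3 the adjusted p was 0.0507 for Eif3e and 0.0601 for Eif3m, and leaving out 1 library ended the calls of Eif3d and Eif3i in 6 and 8 of 24 fits. The 14 estimates were all below 0 also without that library (median -0.14, 1 called) and without C57BL/6J high-fat library 5 (median -0.13, 2 called). In 129S1/SvImJ 9 of the 14 were above 0, with a median of 0.05. Eif3a had estimates of -0.07 ± 0.118 (SE) in 129S1/SvImJ and -0.10 ± 0.108 (SE) in C57BL/6J and was not called.

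**Figure D3:**
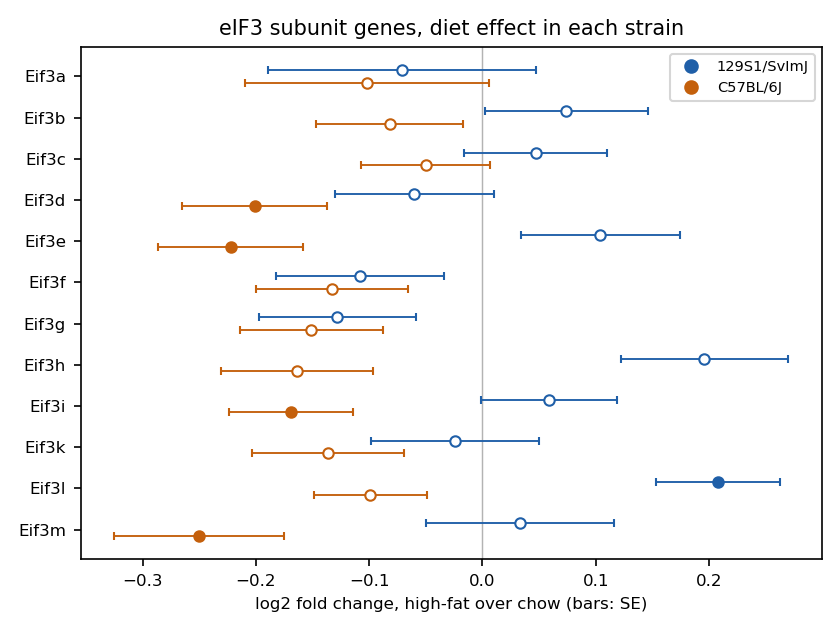
Log2 fold change of high-fat diet over chow with its SE for 12 eIF3 subunit genes in 129S1/SvImJ and C57BL/6J, leaving out the near-identical Eif3j copies. Filled points passed an edgeR adjusted p of 0.05; the C57BL/6J estimates lie between -0.25 for Eif3m and -0.05 for Eif3c, and Eif3l is the one subunit called in 129S1/SvImJ, at 0.21.

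In 129S1/SvImJ the high-fat diet raised 4 members and lowered none, 7.27% of the 55 beside 10.4% of all tested genes. In the higher direction the share of all tested genes was 5.41%, and in the lower one, with no member, it was 5.01%. The 4 were Eif4e3, Eif4g1, Eif3l and Eif5a. Eif3l, a subunit at the edge of the eIF3 core, was at 84.7, 81.9, 73.3, 78.8 and 84.8 CPM in the chow libraries and at 91 to 99.4 CPM in the high-fat libraries (median 92.3, n = 6), with no overlap. Its log2 fold change was 0.21 ± 0.055 (SE) with an edgeR adjusted p of 0.0157. Eif5a was at 161.4, 149, 167.3, 166.4 and 180.7 CPM on chow and at 171.7 to 201.9 CPM on the high-fat diet (median 186, n = 6), overlapping through the highest chow library. On the log2 scale it rose by 0.18 ± 0.054 (SE), with an edgeR adjusted p of 0.0353, which reached 0.153 without 129S1/SvImJ chow library 2 and exceeded 0.05 in 6 of the 24 fits.

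The eIF4 group, which recognises and unwinds the capped end of the mRNA, held members that moved in opposite directions. Eif4e3, a cap-binding relative of eIF4E, was at 3.21, 5.44, 3.78, 4.61 and 7.61 CPM in 129S1/SvImJ on chow and at 7.64 to 11.8 CPM on the high-fat diet (median 10.2, n = 6). The highest chow library fell just short of the lowest high-fat library. The log2 fold change was 0.98 ± 0.243 (SE), a ratio of 1.97, with an edgeR adjusted p of 0.0104. In C57BL/6J the same gene was at 4.92 to 8.61 CPM on chow (median 7.72, n = 6) and at 6.81 to 20.5 CPM on the high-fat diet (median 11.3, n = 7). Library 2 of the high-fat group was far above the others, and 2 high-fat libraries lay within the chow range. The log2 fold change there was 0.66 ± 0.206 (SE) with an edgeR adjusted p of 0.0324, which exceeded 0.05 in 6 of 24 fits and reached 0.0885 without high-fat library 2. Eif4e3 was the sole member called for diet in both strains. Of its 2515 exon bases, 373 are shared with Gm20696, a gene on the same strand at 10.2 CPM, whose own diet estimates were 0.02 in 129S1/SvImJ and -0.34 in C57BL/6J, neither called.

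Eif4g1, the scaffold that joins the cap-binding protein, the helicase and eIF3, was at 602.9, 593.7, 716.5, 619.2 and 617.9 CPM in 129S1/SvImJ on chow and at 713.8 to 827.9 CPM on the high-fat diet (median 739.4, n = 6). Chow library 3 alone reached the high-fat range. Its log2 fold change was 0.26 ± 0.067 (SE) with an edgeR adjusted p of 0.0144, and 0.0509 without chow library 2. In C57BL/6J the levels were 608.7 to 749.1 CPM on chow (median 642.3, n = 6) and 701.9 to 796.5 CPM on the high-fat diet (median 756.9, n = 7). The estimate was 0.18 ± 0.062 (SE) with an edgeR adjusted p of 0.051, just outside the threshold.

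Eif4b, which stimulates the helicase eIF4A, went the other way in C57BL/6J. It was at 298 to 353.8 CPM on chow (median 316.7, n = 6) and at 232.4 to 314.8 CPM on the high-fat diet (median 269.8, n = 7), and high-fat library 4 was the one inside the chow range. Its log2 fold change was -0.26 ± 0.064 (SE) with an edgeR adjusted p of 0.00635, and no single library ended the call. Eif4e2, a cap-binding protein that represses translation, fell by 0.21 on the log2 scale (SE 0.057) with an edgeR adjusted p of 0.0136. For Eif4e itself the estimates were 0.12 ± 0.097 (SE) in 129S1/SvImJ and 0.10 ± 0.088 (SE) in C57BL/6J. The helicase genes Eif4a1 and Eif4a2 had C57BL/6J estimates of -0.19 ± 0.07 (SE) and -0.12 ± 0.066 (SE), and neither was called. The second eIF5A gene, Eif5a2, was at 1.24 CPM or less in every library and was not called. Eif6, which keeps free large subunits from joining, had estimates of -0.17 ± 0.085 (SE) in 129S1/SvImJ and 0.06 ± 0.077 (SE) in C57BL/6J and was not called.

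**Figure D4:**
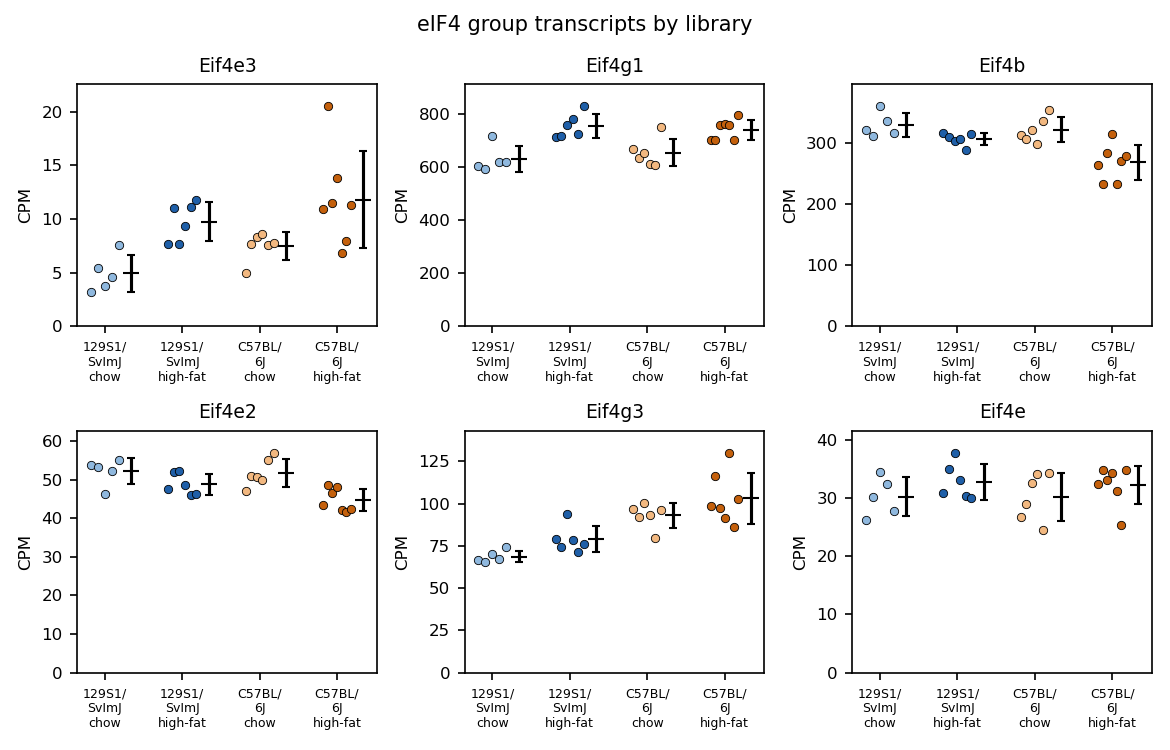
CPM of 6 eIF4 group genes in each of the 24 libraries, by strain and diet, with mean and SD beside the points. Eif4e3 is higher on the high-fat diet in both strains and Eif4g1 in 129S1/SvImJ, Eif4b and Eif4e2 are lower on it in C57BL/6J, and Eif4g3 is lower in 129S1/SvImJ, at 68.7 CPM on chow against 93 CPM in C57BL/6J.

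The difference between the strains in their diet effect was tested directly, as the 129S1/SvImJ effect minus the C57BL/6J effect. No member was called by edgeR (0 of 55, beside 0.296% of all tested genes, 0.172% higher and 0.124% lower), while 13 had an unadjusted p under 0.05, beside 2077 of the 14533 tested genes. The DESeq2 Wald test called 5, beside 297 of 13968 genes (2.13%). All 5 of DESeq2's calls, Eef2, Eif2a, Eif3h, Eif3l and Eif5a, were positive. The estimates were mostly above 0, in 48 of 55 members with a median of 0.12, beside 7115 of 14533 tested genes with a median of -0.01. The smallest edgeR adjusted p was 0.0578 for Eif2a, with an estimate of 0.42 ± 0.102 (SE), which joined a positive estimate in 129S1/SvImJ to a negative one in C57BL/6J. Next came Eif3l at 0.31 ± 0.075 (SE) with 0.061, Eif3h at 0.36 ± 0.1 (SE) with 0.0931 and Eef2 at 0.32 ± 0.091 (SE) with 0.101, each p being edgeR's adjusted one. Eif2a shares 72 of its 6118 exon bases with Serp1 on the opposite strand, a gene at 292.4 CPM. The estimate for Serp1 was 0.285 with an edgeR adjusted p of 0.275, and its part in the Eif2a values was not tested. Core elongation factors (5 tested) had a median of 0.24 and eIF3 genes (14) one of 0.19, all of them above 0. Without C57BL/6J chow library 3, all 5 core elongation factors and 12 of the 14 eIF3 genes were above 0. Among libraries under 3000 CPM of 7SK the median over the 55 members was 0.12, and among those above it 0.07, where 8 of the 14 eIF3 genes were above 0. The calls in C57BL/6J alone do not show that 129S1/SvImJ responded otherwise.

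The diet results were also read within 7SK levels, a split chosen after the data were seen. Under 3000 CPM of 7SK, where C57BL/6J has 3 chow and 2 high-fat libraries, edgeR called 0 members, with 9 at an unadjusted p under 0.05, and 2.13% of all tested genes; the median was -0.04 and all 5 core elongation factors and all 14 eIF3 genes were below 0. Above 3000 CPM, with 3 chow and 5 high-fat libraries, it called 7 members lower and 5.19% of all tested genes in either direction, the median was -0.16, and 5 of 5 core elongation factors and 13 of 14 eIF3 genes were below 0. In 129S1/SvImJ the median over the members was 0.14 under 3000 CPM and -0.07 above it, so its sign differed between the levels. A summed level of Adipoq, Lep and Plin1 of at least 1 CPM was seen in 2 libraries, 129S1/SvImJ chow library 1 (1.36 CPM) and C57BL/6J high-fat library 5 (6.07 CPM), and without them 8 members were lower and 1 higher in C57BL/6J, beside 11.9% of all tested genes in either direction.

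Between the strains on chow, 5 members differed, 9.09% of the 55 beside 25.0% of all tested genes (12.6% higher and 12.5% lower in 129S1/SvImJ). Eif3j2 and Eif2d were higher in 129S1/SvImJ, and Eif3j1, Eif4g3 and Eef1a1 were lower. Eif2d, which can deliver tRNA to ribosomes without GTP and acts in recycling, was at 40.2, 40.5, 38, 36.5 and 42.3 CPM in 129S1/SvImJ on chow and at 29 to 31.9 CPM in C57BL/6J (median 31, n = 6). The groups did not overlap, and the log2 fold change was 0.36 ± 0.057 (SE) with an edgeR adjusted p of 2.59e-05. Eif4g3, a second eIF4G scaffold, was at 66.5, 65.7, 69.9, 67 and 74.2 CPM in 129S1/SvImJ on chow and at 79.4 to 100.1 CPM in C57BL/6J (median 94.9, n = 6), again without overlap, with a log2 fold change of -0.44 ± 0.088 (SE) and an edgeR adjusted p of 0.000498. Both differences were called on the high-fat diet too, at 0.38 ± 0.052 (SE) for Eif2d and -0.39 ± 0.08 (SE) for Eif4g3. Eef1a1 had a log2 fold change of -0.24 ± 0.083 (SE) on chow with an edgeR adjusted p of 0.0362, which rose above 0.05 in 6 of 24 fits without 1 library, up to 0.12. The submitters' processing notes name a single genome build, mm10, which is based on C57BL/6J, and its part in the strain differences was not tested.

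On the high-fat diet 17 members differed between the strains, 15 higher and 2 lower in 129S1/SvImJ. That is 30.9% of the members beside 37.0% of all tested genes, 27.3% beside 17.9% for the higher direction and 3.64% beside 19.1% for the lower. The higher members, apart from Eif3j2 and Eif2d, were Eef2, Eef2k, Eif1ax, Eif2a, Eif2s1, Eif2s2, Eif3e, Eif3h, Eif3i, Eif3l, Eif4a2, Eif4b and Eif5. Eef2 was at 1420.4 to 1649.6 CPM in 129S1/SvImJ and at 1062.2 to 1344.9 CPM in C57BL/6J, without overlap, a log2 fold change of 0.34 ± 0.062 (SE) with an edgeR adjusted p of 0.000111. Eif3i, a scaffold subunit of eIF3, was at 55.9 to 63.9 CPM in 129S1/SvImJ and at 42.6 to 50.6 CPM in C57BL/6J, without overlap, with a log2 fold change of 0.35 ± 0.055 (SE) and an edgeR adjusted p of 1.27e-05. Eef2k differed by 0.55 ± 0.137 (SE) with an edgeR adjusted p of 0.00261, so kinase and substrate transcripts were both higher in 129S1/SvImJ. The calls for Eif2s1, Eif2s2, Eif3h, Eif4a2 and Eif4b ended in 3, 8, 2, 5 and 1 of 24 fits without 1 library. The high-fat comparison shares its C57BL/6J libraries with the diet comparison in that strain, so both hold the same low values.

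The 2 genes for the loosely bound eIF3 subunit j, Eif3j1 on chromosome 2 and Eif3j2 on chromosome 18, had the largest strain differences of the family, in opposite directions. Eif3j1 was at 6.43, 6.18, 9.85, 7.64 and 7.09 CPM in 129S1/SvImJ on chow and at 19.8 to 22.2 CPM in C57BL/6J on chow (lowest and highest of 6). Eif3j2 was at 8.66, 6.91, 7.96, 8.77 and 8.93 CPM in 129S1/SvImJ on chow and at 0 to 0.311 CPM in C57BL/6J, where the 6 libraries held 10 counts in all. The edgeR log2 fold changes on chow were -1.48 ± 0.116 (SE) and 5.68 ± 0.276 (SE), with adjusted p of 1.4e-10 and 1.32e-14. On the high-fat diet they were -1.19 ± 0.103 (SE) and 6.15 ± 0.256 (SE), and the 7 C57BL/6J libraries again held 10 counts of Eif3j2.

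These 2 values are uncertain as measures of either gene, because the copies are nearly identical. Eif3j1 has 8 exons in its longest listed form and Eif3j2 has 1, the form a reverse-transcribed copy takes. Their transcripts differ at 4 of 2369 aligned bases, and the alignment also holds 10 gap bases. The open reading frames are 786 and 792 bases long and hold no difference among 786 aligned bases. How the authors' counting placed reads that match both was not given in the sources used here. Both genes summed to 15.7 ± 1.74 CPM (SD, n = 5), 18.1 ± 1.61 (SD, n = 6), 20.8 ± 0.943 (SD, n = 6) and 18.7 ± 1.69 (SD, n = 7) in 129S1/SvImJ on chow and high-fat diet and in C57BL/6J on chow and high-fat diet. With their counts summed, a step chosen after the values were seen, the strain difference was -0.41 ± 0.084 (SE) on chow with an edgeR adjusted p of 0.000587, and -0.05 ± 0.076 (SE) on the high-fat diet with 0.649. Eif3j2 made up 52.8% and 55.2% of the sum in 129S1/SvImJ and 0.723% and 0.674% in C57BL/6J, on chow and on the high-fat diet. Eif3j1 also shares 1107 of its 5830 exon bases with Spg11 on the opposite strand, and the sources used here give no strand setting for the counting.

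**Figure D5:**
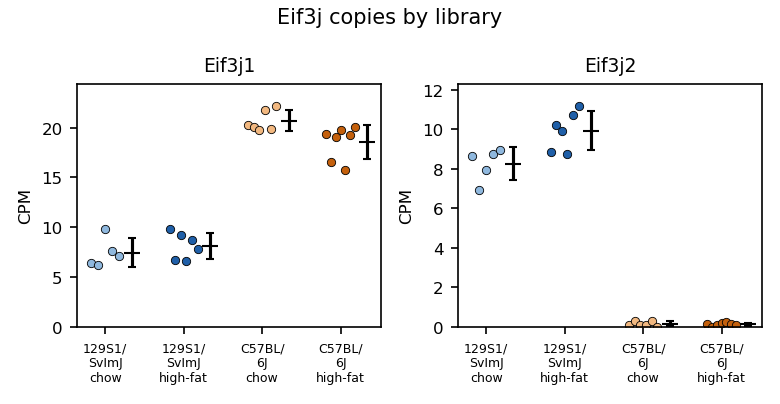
CPM of Eif3j1 and of its near-identical copy Eif3j2 in each of the 24 libraries, by strain and diet, with mean and SD beside the points. All C57BL/6J libraries lie at 15.7 CPM or more for Eif3j1 and at 0.311 CPM or less for Eif3j2, while 129S1/SvImJ libraries lie between 6.18 and 11.2 CPM for both genes.

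Across the 24 libraries the genes most like Eef2 in log2 CPM were Rack1 (Pearson r = 0.921), a protein of the small ribosomal subunit, then Cadm4 (0.921), Gpld1 (0.914), Fam234b (0.91) and the cytochrome P450 gene Cyp1a2 (0.909). Within the family they were Eif4b (0.811), Eif3i (0.765) and Eif5 (0.639). For Eef1a1 they were the ribosomal protein gene Rpl21 (0.906), the nucleolar chaperone gene Npm1 (0.898), Rpl23 (0.89), Wapl (0.863) and Atrx (0.857), and within the family Eef1b2 (0.77), Eif3m (0.72) and Eif4a1 (0.712). The 2 abundant elongation factors thus had different nearest genes. The ratio of Eef1a1 to Eef2 was 1.12 ± 0.158 (SD, n = 5) and 1.09 ± 0.118 (SD, n = 6) in 129S1/SvImJ on chow and high-fat diet, and 1.34 ± 0.14 (SD, n = 6) and 1.36 ± 0.099 (SD, n = 7) in C57BL/6J. These correlations are descriptions over libraries that share groups, depth and 7SK level.

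The starts of the transcripts were read for the pyrimidine motif, because the family includes genes known to carry it. A start was counted when the first base was C and at least 4 more C or T followed, on the strand of the gene. At the start sites of RefSeq (GRCm38 promoter windows, 45 members matched) 2 members, Eif2s3x and Eif3f, held such a run, 4.44% beside 2.71% of 16507 protein-coding genes. At the first base of any GENCODE M21 coding transcript, a search chosen after the data were seen, 9 of 57 members held one, 15.8% beside 5.14% of 21785 protein-coding genes and 27.2% of 81 ribosomal protein genes. Genes with more coding transcripts, such as Eef1d with 15 against 1 for Eef2, have more chances here, and the shares were not matched for this. The first 24 bases of 6 of the 9 are shown 5' to 3' with the run in capitals, followed by Eef2 and Eef1a1, which have no such run at these annotated starts:
Eef1b2, chr1:63177130-63177153, plus strand: CTTTTTTTCCCTCagcgctggccg
Eef1d, chr15:75909283-75909306, minus strand: CTCTCCTTTgcagtcctgagctcg
Eif3f, chr7:108934417-108934440, plus strand: CTCTTTCTCggcaagatggcttct
Eif2s3x, chrX:94212628-94212651, minus strand: CTTTTCTCTCCgagcaagatggct
Eif3m, chr2:105017020-105017043, minus strand: CTTTTCCggtcggcgtgtttctgg
Eif4a2, chr16:23107758-23107781, plus strand: CTTTTCagtcgggcgctgagtggg
Eef2, chr10:81176631-81176654, plus strand: gttgacgtcagcggtctcttccgc
Eef1a1, chr9:78481701-78481724, minus strand: ttcccgagggtgggggagaacggt

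The positions are those of mm10 (GRCm38). Annotated starts can lie some bases from the start used in liver, so a missing run says only that these letters are not at these positions. For Eef1a1 the 30 bases around the RefSeq start hold a run of 10 pyrimidines that begins 5 bases before that start, shown in capitals:
Eef1a1, chr9:78481705-78481734, minus strand: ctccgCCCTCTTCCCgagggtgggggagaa

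A run of at least 7 pyrimidines with its first base within 10 bases of the RefSeq start occurred in 22.2% of the 45 matched members and in 14.6% of the protein-coding genes. In C57BL/6J the tested members with this window run (10) had a median diet effect of -0.10 with 2 lower. Those without it (34) also had one of -0.10, with 8 lower. Among all tested protein-coding genes, 123 of 1529 with the window run and 618 of 8253 without it were lower. For the run at a GENCODE start, the 9 members with it had a median of -0.13 with 2 lower. The 46 without it had one of -0.09 with 11 lower. Of all tested protein-coding genes, 66 of 752 with that run and 868 of 11625 without it were lower. Among the members that fell, Eef1b2 and Eif3m carry the run at an annotated GENCODE start and Eef2, Eef1a1 and Eif4b do not. Eif4b has a run of 7 that begins 10 bases after its RefSeq start. The Eef2 stretch printed above holds a pyrimidine run further in, which these searches do not count. Of the ribosomal protein genes, 21.3% held the run at a RefSeq start, 49.2% in the RefSeq window and 27.2% at a GENCODE start. Members without a counted run may therefore still carry the motif.

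The other genes of the translation apparatus were counted from lists compiled alongside the family. Their counts for diet stand beside 5.41% of all tested genes higher and 5.01% lower in 129S1/SvImJ, and 7.66% higher and 7.20% lower in C57BL/6J. For the short lists of synthetases, partners, regulators and enzymes nothing particular to a list is read from its counts. Of 77 tested cytosolic ribosomal protein genes, 61 fell in C57BL/6J on the high-fat diet and none rose, with a median log2 fold change of -0.35, while the median in 129S1/SvImJ was -0.07. The strain difference in diet effect was called for 7 ribosomal protein genes, all positive, among them Rpl7a at 0.43 ± 0.079 (SE) with an edgeR adjusted p of 0.0196. The translation factors' median in C57BL/6J, -0.10, was smaller in size than that of the ribosomal proteins.

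Of 22 cytosolic tRNA synthetase genes and their scaffold proteins, 3 fell in 129S1/SvImJ and 5 in C57BL/6J. The cysteine, threonine and tyrosine enzymes Cars, Tars and Yars fell in both strains, Cars by 0.69 on the log2 scale (SE 0.108) in 129S1/SvImJ and by 0.55 (SE 0.097) in C57BL/6J. In a list of 17 genes made for cap and poly(A) partners, 2 rose in 129S1/SvImJ, namely Dap and the poly(A)-binding protein gene Pabpc1. Dap, a death-associated protein gene, is not an established partner of this kind and is counted only as listed. In C57BL/6J 2 of the listed genes rose, Dap among them, and 5 fell, the latter including Ctif, Pabpc4 and the helicase gene Ddx3x. Of 9 eIF4E-binding protein and eIF2 kinase or phosphatase genes, the kinase gene Eif2ak3 (PERK) fell by 0.57 on the log2 scale (SE 0.112) in 129S1/SvImJ, with an edgeR adjusted p of 0.00157, and none was called for diet in C57BL/6J.

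Among 23 mTORC1 pathway genes, Sesn1, a stress-induced inhibitor of the pathway, fell in both strains, by 0.66 on the log2 scale (SE 0.109) in 129S1/SvImJ and by 0.30 (SE 0.1) in C57BL/6J. In C57BL/6J Sesn3 rose by 0.28 ± 0.069 (SE) and Rps6kb1, the S6 kinase gene, fell by 0.19 (SE 0.059). Of 14 tested factor-modifying enzymes, Mettl13, an eEF1A methyltransferase, and Secisbp2, which serves selenocysteine insertion, fell in C57BL/6J. Dhps, the first enzyme of eIF5A hypusination, was lower in 129S1/SvImJ than in C57BL/6J on chow, at 5.2 ± 0.347 CPM (SD, n = 5) against 9.76 ± 0.908 CPM (SD, n = 6), with an edgeR adjusted p of 5.13e-05. Of 10 tested termination, recycling and rescue genes, Abce1, the ATPase that splits ribosomes, rose in 129S1/SvImJ by 0.29 ± 0.09 (SE), and none was called for diet in C57BL/6J.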

How the data were processed

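Per the labels' protocols, total RNA from liver was depleted of ribosomal RNA and made into strand-keeping libraries. Per the submitters' processing notes the build was mm10, and STAR 2.5.4b, Bowtie2 2.2.3, DESeq2 1.26.0 and Trimmomatic 0.36 were used, with no roles given. Annotation release, handling of multiply matching reads and strand setting were not given in the sources used here. For each gene the authors deposited raw counts, 1 file per library and 1 matrix, and all 24 files equalled the matrix. The log2-like variance-stabilized values that the authors deposited served 1 alternative. Symbols, lengths and coordinates came from GENCODE M21 (mm10), which matched 53582 of 53677 identifiers; the 95 others held 0.00747% of counts.

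Counts were tested with edgeR 4.0.16 in R 4.3.3 (filterByExpr, TMM, robust quasi-likelihood test, 1 mean per group over all 24 libraries, two-sided, Benjamini-Hochberg over 14533 genes), with calls at an adjusted p under 0.05. The code was checked on simulated counts. Named genes were all Eef genes, members called in a comparison (up to 15 per direction by p), 11 fixed members (Eif4e, Eif4g1, Eif4a1, Eif4a2, Eif4b, Eif2s1, Eif2s3x, Eif2s3y, Eif3a, Eif5a and Eif6), and up to 4 called genes per list; further genes were chosen after their values were seen. The members and lists were chosen with earlier results of these data known. Alternatives were DESeq2 1.42.0, limma 3.58.1, other scalings and filters, 2-group fits, 7SK levels, fat-cell libraries, a replicate block and each library left out. The labels give each library its own mouse, but the mouse IDs of each group share 1 of 2 middle numbers, whose meaning (such as a cage or litter) they do not give; the tests treat mice as independent. Equal replicate numbers were not taken to pair mice. The deviations of same-numbered libraries correlated with a mean r of 0.055 over 33 pairs (-0.21 to 0.281). Differently numbered libraries of different groups had a mean r of -0.01 over 182 pairs (-0.267 to 0.307). Replicates differed beyond sampling noise in all 61 pairs, with a chi-square per degree of freedom of at least 5.49. The values of 1 listed ribosomal protein gene are not reported here.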

Additional observations from a re-analysis of the deposited data

Results flagged for a closer look

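For 37 named members and 8 summed measures the libraries of each group were searched for one far from the rest of its group, the gap to its neighbour being large against the group's range (Dixon's 95% criterion). Of 180 groups 13 held such a library, 7.22%, and chance flags about 1 in 20 groups. In 129S1/SvImJ on chow, library 3 was highest for Eif4a2 (293.3 CPM against 233 to 250.1 in the others), Eif4g1 (716.5 against 593.7 to 619.2) and Eif6 (48.2 against 40.2 to 42.4), and library 4 for Eef1e1 (8.88 against 6.56 to 7.05). In 129S1/SvImJ on the high-fat diet, library 3 was highest for Eif3l (99.4 CPM against 91 to 93.3) and Eif4g3 (94.1 against 71.5 to 79). In C57BL/6J on chow, library 4 was highest for Eif1ax (45.1 CPM against 39.6 to 40.7) and library 1 lowest for Eif4e3 (4.92 against 7.61 to 8.61). In C57BL/6J on the high-fat diet, library 7 was highest for Eef1b2 (84.6 CPM against 66.2 to 73.6) and library 1 for Eif1a (44.9 against 34.4 to 38.9). In the same group, library 2 was lowest for Eef1g (49.8 CPM against 58.1 to 63.4), library 5 for Eif2s3x (12.5 against 14.4 to 15.5) and library 6 for Eif4e (25.4 against 31.2 to 34.7).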

How the results depend on the processing

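The number of members called for diet was 4 in 129S1/SvImJ and 14 in C57BL/6J, beside 10.4% and 14.9% of all tested genes. Without a filter on low counts, which adds genes to the correction, they were 2 and 9, beside 3.70% and 5.49%. Among libraries under 3000 CPM of 7SK they were 0 and 0, beside 2.08% and 2.13% of all tested genes. Above it they were 1 and 7, beside 1.87% and 5.19%. These fits have fewer libraries and were chosen after the data were seen. Without the 2 libraries with fat-cell transcripts C57BL/6J had 9, beside 11.9% of all tested genes. Leaving out 1 library gave 2 to 5 and 8 to 17. The fit with 2 called 7.00% of all tested genes, and the fits with 8 and 17 called 12.9% and 15.2%. The 5 strain calls on chow, beside 25.0% of all tested genes, became 9 within the low 7SK level, beside 20.7%. With 1 library left out they were 4 to 9, and the fit with 9 called 23.4% of all tested genes. The 17 on the high-fat diet, beside 37.0%, became 3 under 3000 CPM of 7SK, beside 10.6%. With 1 library left out they were 13 to 18, and the fit with 13 called 33.4%. The strain difference in diet effect, 0 calls beside 0.296% of all tested genes, gave 3 with 7SK as a covariate, beside 0.833%. It gave 4 within the low 7SK level, beside 1.30%, and 5 with DESeq2, beside 2.13%. With 1 library left out it gave 0 to 3, and the fit with 3 called 1.17% of all tested genes. The elongation minus initiation difference for strain on chow, 0.08, became 0.001 above 3000 CPM of 7SK and -0.05 with the Eif5a genes moved to elongation and Eef1e1, Eef2k and Eef2kmt left out. For the strain difference in diet effect, 0.04, it became 0.14 and 0.13, and 0.003 to 0.112 with 1 library left out. For diet in C57BL/6J, -0.099, it was -0.051 under 3000 CPM of 7SK, -0.059 with the Eif5a genes moved and -0.146 to -0.067 with 1 library left out. For diet in 129S1/SvImJ, -0.046, it was -0.113 under and -0.007 above 3000 CPM, -0.021 with the Eif5a genes moved and -0.085 to -0.010 with 1 library left out. The share of members with a start-site pyrimidine run, 4.44%, became 22.2% for a run of 7 within 10 bases of the start and 15.8% at GENCODE starts. The estimate of Eif2a for diet in C57BL/6J changed sign under 3000 CPM of 7SK, to 0.006 (edgeR adjusted p 0.985). Where no alternative's construction shows it, the cause was not tested. With the replicate number as a block, the calls were 3 for diet in 129S1/SvImJ, against 4, and 13 for diet in C57BL/6J, against 14. These stood beside 10.3% and 12% of all tested genes in the blocked fit. Strain on chow gave 6, against 5, beside 24.5% of all tested genes. Strain on the high-fat diet gave 19, against 17, beside 35.7%. The strain difference in diet effect gave 0 in both fits, with the block beside 0.117%. Of the libraries, 5 correlated best with their own number. Over all genes the block gave 17 calls for the difference against 43. A fit within the high 7SK level was not run, since the planned split put 2 libraries of 1 group there. Depth limits Eef1a2, Eif4e1b and Eif5a2, which were at 1.24 CPM or less in every library.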
